A study of Mus musculus with 20 samples.

Results

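Liver expression of the genes of lipogenesis and triglyceride synthesis was compared between 4 inbred mouse strains. The set held 34 named genes, covering the enzymes that turn citrate and acetate into fatty acids, desaturate and elongate them and esterify them, together with their main regulators. A gene was represented by the probe set annotated with its symbol alone, or by the brightest of these over all 20 arrays where several existed. Of the 34 genes, 32 had such a probe set. G6pdx, an enzyme that supplies NADPH, had none, and Acsl3, an acyl-CoA synthetase, was annotated only together with other symbols. The series as a whole held 19938 genes with such a probe set, of which 14190 were tested. A gene was tested where its value exceeded the array's 40th percentile on at least 5 arrays; a value below that percentile is called dim here. By this rule 31 of the 32 measured genes were tested, and Mogat1, a monoacylglycerol acyltransferase, was dim on all 20 arrays and was not.

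Each array measured total RNA from the liver of 1 male mouse aged 6 weeks. There were 5 mice of each strain, labelled NZO/Hl, C3H, 129P2/OlaHsd and C57/Bl6, and called NZO, C3H, 129P2 and B6 in what follows. The C3H label also carries a Jackson Lab stock number. All 20 mice ate a high-fat diet (45% of the energy from fat, 20% from protein and 35% from carbohydrate, 4.73 kcal per g) from weaning at 21 days. NZO is a polygenic model of obesity and type 2 diabetes, and the other 3 are common laboratory strains. No arm on another diet was among the samples, so every level below is a level on the high-fat diet, and a response to the diet cannot be read from it. The labels give no feeding state and no time of day at the collection of the livers, and no litter or cage. Each strain is 1 inbred line, so a difference between strains cannot be assigned to a locus, and whether sequence differences under the probes add to it was not tested. Values are the deposited log2 expression values. Differences are log2 differences with the first-named strain minus the second, so that a difference of 1 is a factor of 2.

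Lipogenesis starts in the cytosol, where ATP citrate lyase cleaves citrate to acetyl-CoA, acetyl-CoA carboxylase makes malonyl-CoA, and fatty acid synthase builds palmitate with NADPH. Stearoyl-CoA desaturase introduces the double bond of palmitoleate and oleate, elongases and the fatty acid desaturases Fads1 and Fads2 make longer and more unsaturated chains, and the glycerol phosphate pathway joins them to triglyceride. In liver the transcription factor SREBP-1c, encoded by Srebf1 and driven by insulin and by the oxysterol receptor LXR alpha (Nr1h3), and the glucose-responsive factor ChREBP (Mlxipl) control most of these genes.

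Most of the members that differed were lower in NZO than in B6. In NZO minus B6, 13 of 31 members were lower and 1 was higher at an adjusted p under 0.05 (limma, Benjamini-Hochberg over all 14190 tested genes). Over all tested genes, 10.3% passed in either direction, 6.64% lower and 3.63% higher. The median difference of the 31 members was -0.45, beside 0.01 for all tested genes. The lower genes held both acetyl-CoA carboxylases (Acaca and Acacb), fatty acid synthase (Fasn), the 4 listed desaturases (Scd1, Scd2, Fads1 and Fads2) and the elongases Elovl2 and Elovl6. Tkt, Acsl5, Lpin2 and Srebf1 were also lower, and the higher gene was the elongase Elovl3.

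Against C3H, NZO had 8 of 31 members lower and 0 higher. The background was 6.6% of all tested genes in either direction, 3.09% lower and 3.51% higher. The 8 genes were Me1, Acaca, Scd1, Elovl2, Elovl5, Elovl6, Fads1 and Fads2, and the median over members was -0.36. Against 129P2, NZO had 4 members lower and 0 higher: Scd2, Lpin2, Dgat1 and Srebf1. There the background was 8.9% in either direction, 4.61% lower and 4.29% higher, and the median over members was -0.15. The NZO animals are the same in all 3 comparisons.

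The other 3 strains differed among themselves as well. In 129P2 minus B6, 8 of 31 members were lower and 0 higher, beside 6.19% of all tested genes in either direction, 4.08% lower and 2.11% higher. They were Acly, Acaca, Acacb, Fasn, Scd1, Elovl6, Fads2 and Srebf1, and the median over members was -0.38. In C3H minus B6, 5 were lower and 0 higher, beside 8.05% in either direction, 5.34% lower and 2.71% higher: Pgd, Acacb, Scd1, Scd2 and Srebf1. In C3H minus 129P2, Elovl6 and Fads2 were higher and 0 members were lower, beside 5.03% in either direction, 2.25% higher and 2.78% lower. Those 2 members are 6.45% of the 31, close to that background. An F-test over the 4 strains called 19 of the 31 members, beside 17% of all tested genes.

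At an unadjusted p under 0.05 (limma), the members counted lower and higher were 21 and 1 in NZO minus B6, 15 and 0 in NZO minus C3H, and 10 and 2 in NZO minus 129P2. They were 7 and 2 in C3H minus B6, 17 and 0 in 129P2 minus B6, and 1 and 14 in C3H minus 129P2. Of all tested genes, 14.2% were lower and 10.9% higher at this level in NZO minus B6, 7.66% and 8.46% in NZO minus C3H, and 10.6% and 9.29% in NZO minus 129P2. The shares were 13.4% lower and 11.5% higher in C3H minus B6, 10.9% and 7.65% in 129P2 minus B6, and 8.59% and 7.54% in C3H minus 129P2. Beside these shares, the members leaned to lower values in NZO when set against B6 and C3H and, less so, against 129P2. They also leaned to lower values in 129P2 when set against B6, and to higher values in C3H when set against 129P2.

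Ordered by strain means, NZO was lowest of the 4 strains for 19 of the 31 members, 129P2 for 8, C3H for 2 and B6 for 2. Over all tested genes NZO was lowest for 23.7%, 129P2 for 22%, C3H for 22.2% and B6 for 32.1%. The highest mean lay in B6 for 18 members, in C3H for 8, in NZO for 3 and in 129P2 for 2. Over all tested genes B6 was highest for 29%, C3H for 25.9%, NZO for 25.1% and 129P2 for 20.1%. The 8 members lowest in 129P2 and the 8 highest in C3H are close to those shares.

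**Figure D1:**
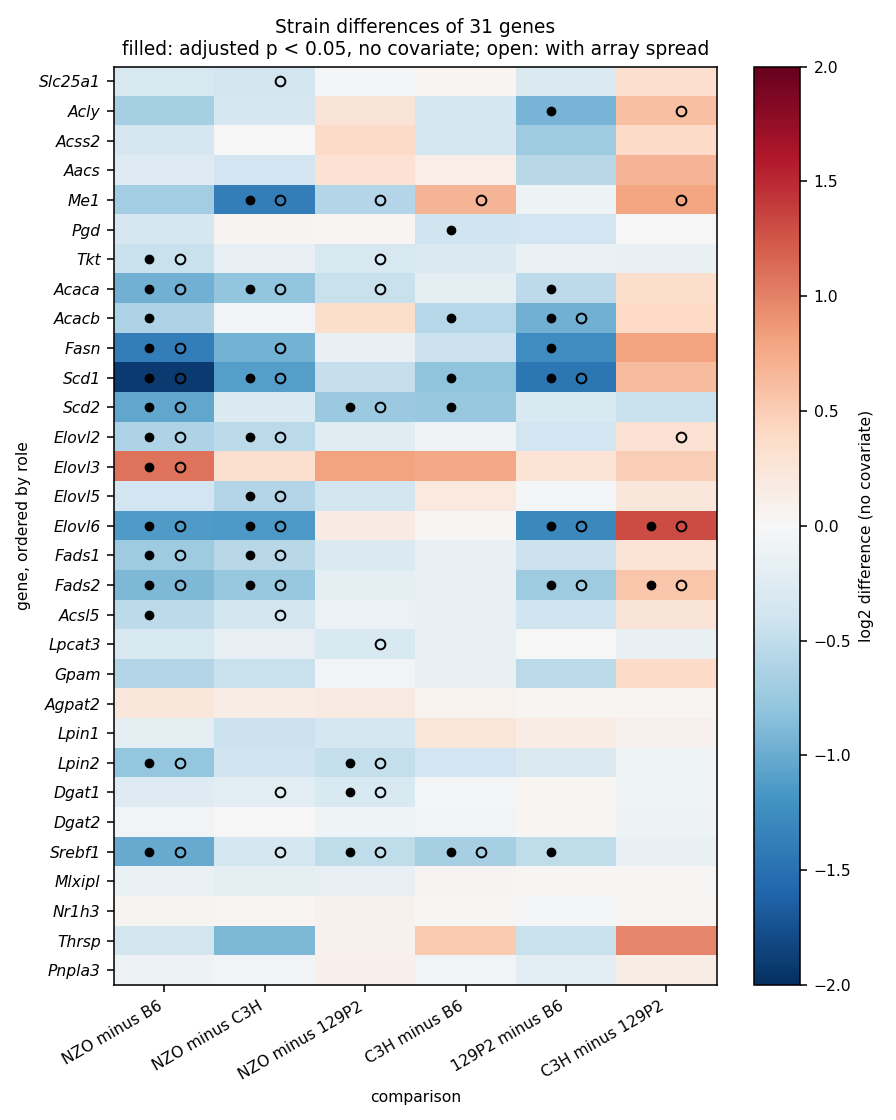
Log2 differences of the 31 tested genes (rows, ordered by their role) in the 6 strain comparisons (columns), with blue for lower and red for higher in the first-named strain. Filled circles mark an adjusted p under 0.05 without a covariate and open circles with the array spread in the fit; the NZO minus B6 column holds 14 filled circles, 13 of them on lower genes.

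The arrays differed in how widely their values spread, and many genes follow that spread, so each comparison was also fitted with it as a covariate. The spread is the interquartile range of an array's log2 values over all probe sets. It averaged 2.33 ± 0.111 in NZO, 2.31 ± 0.088 in C3H, 2.32 ± 0.073 in 129P2 and 2.43 ± 0.057 in B6 (SD, n = 5 each), so B6 arrays had the widest values on average. Of all tested genes, 49% had a slope on the spread that passed (26.6% upward, 22.4% downward), and of the 31 members 10 did, all upward: Acly, Me1, Tkt, Acaca, Acacb, Elovl2, Elovl5, Acsl5, Gpam and Dgat1. With the covariate, NZO minus B6 had 11 members lower and 1 higher, beside 9.71% of all tested genes in either direction, 4.7% lower and 5.01% higher; Acacb and Acsl5 no longer passed. NZO minus C3H then had 13 members lower, with Slc25a1, Fasn, Acsl5, Dgat1 and Srebf1 added (background 9.58%, 4.95% lower and 4.62% higher). NZO minus 129P2 had 8 lower, with Me1, Tkt, Acaca and Lpcat3 added (background 13.6%, 7.43% lower and 6.15% higher). The comparisons of C3H and 129P2 with B6 lost members instead. C3H minus B6 had Srebf1 lower and Me1 higher (background 5.95%, 2.87% lower and 3.08% higher), and 129P2 minus B6 had Acacb, Scd1, Elovl6 and Fads2 lower (background 6.62%, 2.98% lower and 3.64% higher). C3H minus 129P2 then had 5 members higher, with Acly, Me1 and Elovl2 added (background 7.93%, 3.73% higher and 4.2% lower). The F-test called 19 members with the covariate, beside 21.1% of all tested genes. The median over members was -0.14 without and 0.04 with the covariate in C3H minus B6, and -0.38 and -0.18 in 129P2 minus B6. It was -0.45 and -0.32 in NZO minus B6, -0.36 and -0.40 in NZO minus C3H, -0.15 and -0.16 in NZO minus 129P2, and 0.27 and 0.28 in C3H minus 129P2. The cause of the difference in spread was not tested.

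**Figure D2:**
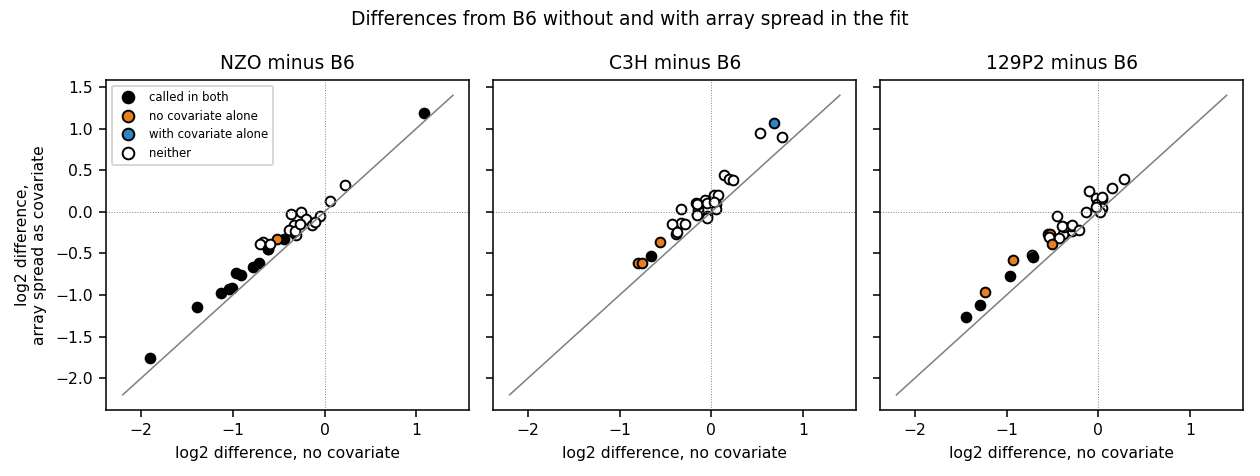
Log2 difference from B6 of each of the 31 tested genes without (x axis) and with (y axis) the array spread as a covariate, in 1 panel per strain; the grey line marks equal values. Most points lie above the line, that is, at a difference less negative or more positive with the covariate; in the NZO panel 12 genes passed in both fits and 2 only without it.

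Srebf1, the gene of SREBP-1, had the smallest p of the F-test over the 4 strains among the members (limma adjusted p = 1.34e-05). Srebf1 (probe set 10386473) had log2 values of 9.44, 9.06, 9.27, 9.52 and 9.19 in the 5 NZO livers and 9.38, 9.57, 9.65, 9.82 and 9.83 in the 5 C3H livers. Its values were 9.64, 9.68, 9.72, 9.94 and 10.04 in 129P2 and 10.24, 9.98, 10.28, 10.63 and 10.41 in B6. All NZO values lay below all 129P2 and B6 values, all C3H values lay below all B6 values, and the 129P2 and B6 values overlapped. NZO averaged 49.6% of the B6 level (log2 difference -1.01 ± 0.12 SE, limma adjusted p = 3.35e-06). Srebf1 was lower in NZO than in 129P2 as well (-0.51 ± 0.12, adjusted p = 0.00724), and lower than B6 in C3H (-0.66 ± 0.12, adjusted p = 0.000888) and in 129P2 (-0.51 ± 0.12, adjusted p = 0.00965). NZO minus C3H was -0.35 ± 0.12 and missed the threshold (adjusted p = 0.0884), but passed with the array spread in the fit (adjusted p = 0.0325). The 129P2 difference from B6 was lost in that fit (-0.39, adjusted p = 0.0636).

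The other listed regulators, Mlxipl, Nr1h3 and Thrsp, did not pass in any of the 6 comparisons. Mlxipl averaged 10.61 ± 0.11 in NZO, 10.80 ± 0.15 in C3H, 10.77 ± 0.17 in 129P2 and 10.75 ± 0.20 in B6 (SD, n = 5 each), and its NZO minus B6 difference was -0.14 ± 0.10 (95% interval -0.35 to 0.07). Nr1h3 averaged 10.02 ± 0.12 in NZO, 9.99 ± 0.13 in C3H, 9.94 ± 0.21 in 129P2 and 9.96 ± 0.08 in B6, with a 95% interval of -0.14 to 0.25 for NZO minus B6. These intervals hold no change as large as that of Srebf1. Thrsp, a thyroid hormone-responsive protein that acts on lipogenic enzymes, varied widely between animals of 1 strain, with an SD of 1.21 in NZO. Its NZO livers had 12.01, 10.44, 9.95, 12.57 and 10.04, and its B6 livers 11.20, 12.47, 10.40, 11.40 and 11.38; with this scatter the NZO minus B6 interval ran over -1.30 to 0.56.

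The carboxylases and fatty acid synthase commit acetyl-CoA to fatty acids. Acaca encodes the cytosolic carboxylase whose malonyl-CoA feeds synthesis. Acaca (probe set 10394538) had log2 values of 9.24, 8.72, 9.02, 9.22 and 8.72 in the 5 NZO livers and 9.74, 9.96, 9.39, 9.94 and 9.85 in the 5 C3H livers. Its values were 9.43, 8.97, 9.68, 9.77 and 9.27 in 129P2 and 9.54, 9.99, 10.14, 10.21 and 9.86 in B6. NZO values lay below all C3H and B6 values without overlap. They averaged 51.3% of the B6 level (-0.96 ± 0.16 SE, adjusted p = 0.000187) and 57.8% of the C3H level (-0.79 ± 0.16, adjusted p = 0.00174; limma for both). The lower Acaca of 129P2 against B6 was smaller (-0.53 ± 0.16, adjusted p = 0.0448), and was lost with the array spread in the fit (adjusted p = 0.262). A second Acaca probe set gave the same order of the strain means, with NZO lowest, then 129P2 and C3H, and B6 highest.

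Acacb encodes the carboxylase at the outer mitochondrial membrane, whose malonyl-CoA restrains fatty acid oxidation. Acacb (probe set 10524460) had log2 values of 8.22, 7.93, 8.04, 8.45 and 7.99 in the 5 NZO livers and 8.20, 8.59, 7.81, 8.06 and 8.20 in the 5 C3H livers. Its values were 7.53, 7.68, 7.93, 8.11 and 7.60 in 129P2 and 8.29, 8.74, 8.69, 9.23 and 8.74 in B6. B6 stood above the rest, and 129P2, not NZO, was lowest. The difference was -0.97 ± 0.15 SE for 129P2 minus B6 (limma adjusted p = 0.000193), with no overlap of values. It was -0.61 ± 0.15 for NZO minus B6 (adjusted p = 0.0107) and -0.56 ± 0.15 for C3H minus B6 (adjusted p = 0.0235), where the values overlapped. With the array spread in the fit the 129P2 difference remained past the threshold (adjusted p = 0.00255), while NZO (adjusted p = 0.0630) and C3H (adjusted p = 0.208) did not.

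Fasn encodes fatty acid synthase, which carries out all steps of palmitate synthesis on 1 polypeptide. Fasn (probe set 10393970) had log2 values of 9.87, 9.36, 9.95, 10.43 and 9.60 in the 5 NZO livers and 10.31, 10.78, 10.59, 11.13 and 11.15 in the 5 C3H livers. Its values were 9.59, 9.44, 10.31, 11.10 and 9.50 in 129P2 and 10.28, 11.17, 11.35, 11.96 and 11.37 in B6. NZO livers and most 129P2 livers were low and most B6 livers high, but the highest 129P2 liver, at 11.10, lay inside the B6 range, and the lowest B6 liver, at 10.28, lay inside the NZO range. NZO averaged 38.3% of B6 (-1.39 ± 0.30 SE, limma adjusted p = 0.00304) and 129P2 averaged 42.4% of B6 (-1.24 ± 0.30, adjusted p = 0.0103). NZO minus C3H was -0.95 ± 0.30 and stood at an adjusted p of 0.0557. With the array spread in the fit NZO minus C3H passed (adjusted p = 0.0295) and 129P2 minus B6 did not (adjusted p = 0.0864).

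The promoters of 28 of the 34 genes are listed in RefSeq (build GRCm38.p6), each as 250 bases before and 50 after a start site. The CCAAT box, letters CCAAT on either strand and bound by the factor NF-Y, which acts beside SREBP on lipogenic promoters, was in 18 of 28 genes, beside 41.1% of 27025 genes. The sterol response element as TCACNCCAC was in 1, Mlxipl, beside 1.44%, and the E-box CACGTG in 4, Elovl5, Lpin2, Mlxipl and Slc25a1, beside 8.09% (both strands in each case). These letters do not overlap one another in the windows. A match is a stretch of letters and no evidence of binding here. Acaca, Acacb, Fasn, Scd1, Elovl6, Fads2 and Srebf1 were lower than B6 both in NZO and in 129P2 without the covariate. With the array spread in the fit, Scd1, Elovl6 and Fads2 alone were called lower in both. Of the genes lower without the covariate, Fasn, Acacb and Srebf1 are shown because a listed window of theirs holds a CCAAT box. The windows of Acaca, Elovl6 and Fads2 hold none, which says only that these letters are not in those windows. Scd1 has no listed window. The CCAAT box stands in capitals, and each sequence runs 5' to 3' along the gene's own strand. Fasn (chr11:120824498-120824797, minus strand) has matches that begin 90, 62 and 59 bases before the start, the last 2 overlapping each other. Acacb (chr5:114165268-114165567, plus strand) has 1 that begins 87 bases before it, and Srebf1 (chr11:60210422-60210721, minus strand, 1 of 3 listed starts, of which 2 have a match) has 1 that begins 30 bases before it.
Fasn: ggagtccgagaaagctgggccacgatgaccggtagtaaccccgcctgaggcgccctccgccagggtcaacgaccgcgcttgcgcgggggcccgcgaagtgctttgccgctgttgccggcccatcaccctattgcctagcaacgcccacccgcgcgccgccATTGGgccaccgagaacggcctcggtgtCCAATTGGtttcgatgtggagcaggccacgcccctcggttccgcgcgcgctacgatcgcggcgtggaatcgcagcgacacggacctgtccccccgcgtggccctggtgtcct
Acacb: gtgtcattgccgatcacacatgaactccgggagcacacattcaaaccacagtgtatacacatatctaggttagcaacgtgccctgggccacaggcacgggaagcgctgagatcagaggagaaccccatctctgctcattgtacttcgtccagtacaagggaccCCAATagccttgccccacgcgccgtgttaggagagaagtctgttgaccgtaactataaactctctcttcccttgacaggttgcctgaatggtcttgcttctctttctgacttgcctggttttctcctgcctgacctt
Srebf1: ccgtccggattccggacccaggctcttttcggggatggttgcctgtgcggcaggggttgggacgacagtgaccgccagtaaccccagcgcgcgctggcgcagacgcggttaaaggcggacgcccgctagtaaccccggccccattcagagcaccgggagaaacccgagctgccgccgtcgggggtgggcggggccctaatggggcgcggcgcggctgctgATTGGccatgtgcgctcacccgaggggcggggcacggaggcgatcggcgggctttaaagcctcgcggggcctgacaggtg

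Scd1 encodes the main stearoyl-CoA desaturase of liver, and had the largest strain difference of the 31 tested members. Scd1 (probe set 10467979) had log2 values of 11.63, 11.91, 11.59, 11.11 and 10.34 in the 5 NZO livers and 12.51, 12.88, 11.74, 12.29 and 12.67 in the 5 C3H livers. Its values were 12.15, 11.87, 11.75, 12.16 and 11.00 in 129P2 and 13.06, 13.12, 13.46, 13.45 and 13.03 in B6. Every B6 liver was above every liver of the other 3 strains. NZO averaged 26.7% of the B6 level (-1.91 ± 0.25 SE, limma adjusted p = 1.42e-05), and 129P2 averaged 36.9% of it (-1.44 ± 0.25, adjusted p = 0.000553). NZO was also lower than C3H (-1.10 ± 0.25, adjusted p = 0.00611), with overlapping values. The C3H difference from B6 (-0.80 ± 0.25, adjusted p = 0.0488) stood at the threshold and was lost in 21 of 31 other settings, the array spread among them.

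Scd2 encodes a related desaturase better known from brain and from newborn liver. Scd2 (probe set 10463355) had log2 values of 7.12, 6.84, 6.91, 6.82 and 6.57 in the 5 NZO livers and 7.33, 6.81, 7.10, 7.17 and 7.29 in the 5 C3H livers. Its values were 8.02, 7.56, 7.39, 7.70 and 7.31 in 129P2 and 7.45, 7.60, 8.72, 8.07 and 7.64 in B6. The lowest NZO value was dim. NZO was below B6 (-1.04 ± 0.18 SE, limma adjusted p = 0.000374) and below 129P2 (-0.74 ± 0.18, adjusted p = 0.00833) without overlap of values, and C3H was below B6 (-0.75 ± 0.18, adjusted p = 0.00961). The C3H difference was lost with the array spread in the fit (-0.61, adjusted p = 0.0858). For Scd2 the mean of C3H lay below that of 129P2, and for Scd1 above it, though neither difference passed. Probes of close copies can share transcripts, and whether these probe sets do was not tested.

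The elongases did not share 1 strain pattern. Elovl6, which extends palmitate to stearate, fell into a high and a low pair of strains. Elovl6 (probe set 10495993) had log2 values of 9.07, 8.66, 8.81, 9.74 and 8.96 in the 5 NZO livers and 9.93, 9.99, 10.14, 10.44 and 10.49 in the 5 C3H livers. Its values were 8.74, 8.10, 9.22, 9.58 and 8.81 in 129P2 and 9.63, 10.83, 10.26, 10.27 and 9.90 in B6. C3H and B6 were the high pair, NZO and 129P2 the low one. NZO was at 45.7% of B6 (-1.13 ± 0.24 SE, limma adjusted p = 0.00292) and at 45.0% of C3H (-1.15 ± 0.24, adjusted p = 0.00296). 129P2 was at 41.0% of B6 (-1.29 ± 0.24, adjusted p = 0.00109), and C3H was above 129P2 (1.31 ± 0.24, adjusted p = 0.00104). All 4 of these calls held with the array spread in the fit, and the 95% interval of NZO minus 129P2 was -0.34 to 0.65.

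Elovl2 elongates long polyunsaturated chains on the way to docosahexaenoate. Elovl2 (probe set 10408838) had log2 values of 12.37, 12.05, 12.08, 12.42 and 12.24 in the 5 NZO livers and 12.90, 12.81, 12.46, 12.86 and 12.86 in the 5 C3H livers. Its values were 12.56, 12.21, 12.43, 12.58 and 12.58 in 129P2 and 12.55, 12.67, 13.23, 13.10 and 12.69 in B6. All NZO values lay below all C3H and B6 values. NZO minus B6 was -0.61 ± 0.12 SE (limma adjusted p = 0.00148) and NZO minus C3H was -0.55 ± 0.12 (adjusted p = 0.00530). Elovl5, which elongates polyunsaturated chains one step earlier, averaged 12.62 ± 0.26 in NZO and 13.20 ± 0.09 in C3H (SD, n = 5 each). Its NZO values, 12.79, 12.23, 12.51, 12.88 and 12.69, lay below all C3H values, 13.27, 13.18, 13.06, 13.25 and 13.27. The difference was -0.58 ± 0.15 SE (limma adjusted p = 0.0162).

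Elovl3, an elongase of saturated and monounsaturated chains, was the exception in direction. Its values were 12.89, 12.16, 12.14, 12.93 and 12.00 in NZO and 11.16, 11.03, 10.33, 12.06 and 12.14 in B6. The difference was 1.08 ± 0.28 (limma, SE, adjusted p = 0.0147), with NZO higher, and the groups overlapped because 2 of the 5 B6 livers reached 12.06 and 12.14. The difference was 0.31 ± 0.28 against C3H and 0.81 ± 0.28 against 129P2, and neither passed (adjusted p = 0.704 and 0.0825). With the array spread in the fit the NZO minus B6 difference was 1.19 (adjusted p = 0.0206).

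Fads1 and Fads2, the delta-5 and delta-6 desaturases of polyunsaturated fatty acid synthesis, lie side by side in the genome and showed like patterns. Fads1 (probe set 10461439) had log2 values of 11.87, 11.91, 12.04, 12.01 and 11.90 in the 5 NZO livers and 12.44, 12.70, 12.36, 12.54 and 12.49 in the 5 C3H livers. Its values were 12.25, 12.13, 12.37, 12.41 and 12.01 in 129P2 and 12.22, 12.39, 13.05, 13.11 and 12.53 in B6. The 5 NZO livers lay within a narrow band below C3H and B6, with 1 of the 5 129P2 values inside it. NZO minus B6 was -0.71 ± 0.13 SE (limma adjusted p = 0.000749) and NZO minus C3H -0.56 ± 0.13 (adjusted p = 0.00810). Fads2 (probe set 10465895) had log2 values of 12.02, 11.82, 12.25, 12.54 and 12.16 in the 5 NZO livers and 12.95, 12.96, 12.72, 13.07 and 12.87 in the 5 C3H livers. Its values were 12.38, 12.02, 12.45, 12.54 and 12.39 in 129P2 and 12.56, 12.94, 13.49, 13.49 and 12.83 in B6. For Fads2 both NZO and 129P2 lay below C3H and B6 with no overlap of values. NZO averaged 53.4% of B6 (-0.91 ± 0.15, limma adjusted p = 0.000334) and 59.2% of C3H (-0.76 ± 0.15, adjusted p = 0.00246). 129P2 averaged 61.2% of B6 (-0.71 ± 0.15, adjusted p = 0.00473), and C3H was above 129P2 by 0.56 ± 0.15 (adjusted p = 0.0343).

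**Figure D3:**
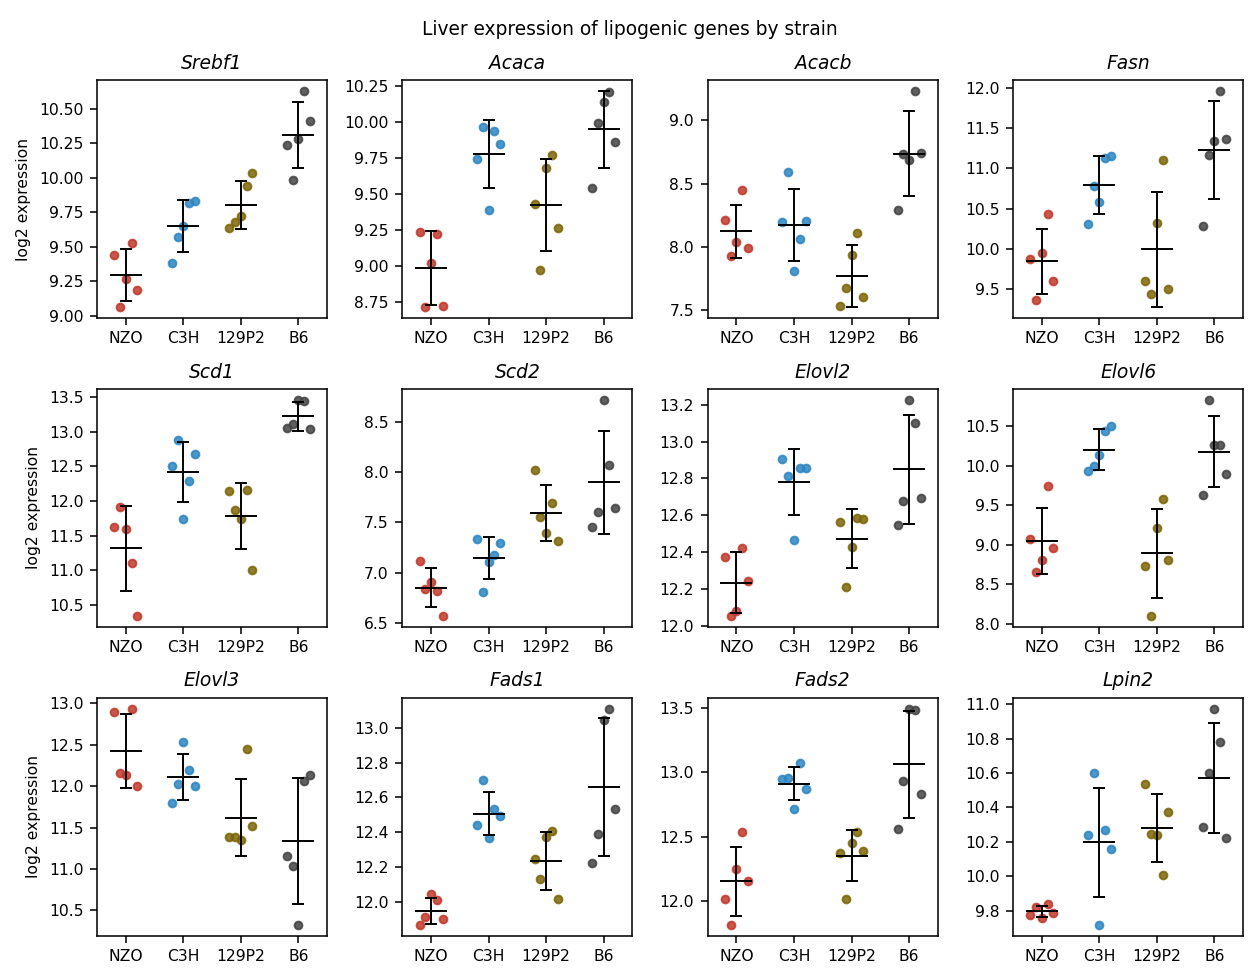
Log2 expression (y axis) of 12 genes in the liver of each mouse, with strains on the x axis and 1 point per animal (n = 5 each); the long bar is the strain mean and the whiskers are ± 1 SD. NZO is lowest of the 4 strain means for Srebf1, Acaca, Fasn, Scd1, Scd2, Elovl2, Fads1, Fads2 and Lpin2, and highest for Elovl3.

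Of the 4 genes that supply acetyl-CoA, Acly passed, and in 1 comparison. Acly, ATP citrate lyase, had log2 values of 9.36, 9.04, 9.63, 10.21 and 9.13 in 129P2 and 9.88, 10.20, 10.55, 10.91 and 10.47 in B6. 129P2 was lower by -0.93 ± 0.22 as 129P2 minus B6 (SE, limma adjusted p = 0.0111), with 1 of the 5 129P2 animals inside the B6 range, and the call was lost with the array spread in the fit (adjusted p = 0.0984). In that fit Acly was instead called higher in C3H than in 129P2. NZO minus B6 for Acly was -0.67 ± 0.22 and missed the threshold (adjusted p = 0.0597). Slc25a1, the mitochondrial citrate carrier, averaged 10.86 ± 0.19 in NZO, 11.22 ± 0.18 in C3H, 10.89 ± 0.22 in 129P2 and 11.18 ± 0.15 in B6 (SD, n = 5 each). It passed the F-test over the 4 strains (adjusted p = 0.0354). Without the covariate none of its 6 pairwise differences passed the threshold, and 4 had an unadjusted p under 0.05. With the array spread in the fit Slc25a1 was called lower in NZO than in C3H (-0.37, limma adjusted p = 0.0381). The cytosolic acetyl-CoA synthetase Acss2 and the acetoacetyl-CoA synthetase Aacs passed neither test; their lowest means were in 129P2, at 9.42 ± 0.52 and 8.46 ± 0.55.

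Among the NADPH-supplying enzymes, malic enzyme Me1 had the widest span of strain means. Its values were 10.02, 8.89, 9.64, 10.41 and 9.31 in NZO and 10.90, 11.41, 10.80, 11.07 and 11.00 in C3H, without overlap. NZO was at 38.4% of the C3H level (-1.38 ± 0.23 SE, limma adjusted p = 0.000358). C3H stood highest of the strains for Me1, and with the array spread in the fit it was also above B6 (1.06, adjusted p = 0.00393) and above 129P2 (0.81, adjusted p = 0.00951). A second Me1 probe set gave the same strain order. The transketolase gene Tkt had 8.99, 8.50, 8.54, 8.86 and 8.61 in NZO and 9.02, 9.11, 9.26, 9.08 and 9.26 in B6, and was lower in NZO (-0.45 ± 0.11, adjusted p = 0.00937). The phosphogluconate dehydrogenase gene Pgd had 8.59, 8.69, 8.73, 8.79 and 8.95 in C3H and 8.87, 8.91, 9.61, 9.16 and 9.15 in B6. C3H was lower (-0.39 ± 0.12, adjusted p = 0.0367), and the difference was lost with the array spread in the fit (adjusted p = 0.229).

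Without the covariate, the genes of acyl-CoA activation and phospholipid remodelling gave 1 call between them. Acsl5, an acyl-CoA synthetase, had 11.07, 10.50, 10.87, 10.82 and 10.91 in NZO and 11.02, 11.07, 11.65, 11.67 and 11.35 in B6. NZO was lower (-0.52 ± 0.14 SE, limma adjusted p = 0.0185), with 1 NZO liver inside the B6 range, and the call was lost with the array spread in the fit (adjusted p = 0.0877). In that fit Acsl5 was instead called lower in NZO than in C3H (-0.42, limma adjusted p = 0.0142). Lpcat3, a lysophosphatidylcholine acyltransferase regulated by LXR, averaged 10.61 ± 0.16 in NZO, 10.77 ± 0.22 in C3H, 10.92 ± 0.22 in 129P2 and 10.93 ± 0.16 in B6 (SD, n = 5 each). None of its 6 differences passed without the covariate, and 2 had an unadjusted p under 0.05. With the array spread in the fit Lpcat3 was called lower in NZO than in 129P2.

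Of the 6 tested genes of triglyceride synthesis, 1, Lpin2, was lower in NZO minus B6, and 2, Lpin2 and Dgat1, were lower in NZO minus 129P2. The lipins dephosphorylate phosphatidate to diacylglycerol. Lpin2 (probe set 10446656) had log2 values of 9.78, 9.82, 9.76, 9.84 and 9.79 in the 5 NZO livers and 10.24, 10.60, 9.72, 10.27 and 10.16 in the 5 C3H livers. Its values were 10.54, 10.25, 10.24, 10.01 and 10.37 in 129P2 and 10.28, 10.60, 10.97, 10.78 and 10.22 in B6. The 5 NZO livers lay between 9.76 and 9.84, below all 129P2 and B6 values. NZO minus B6 was -0.77 ± 0.14 SE (limma adjusted p = 0.000785) and NZO minus 129P2 -0.48 ± 0.14 (adjusted p = 0.0341). C3H overlapped NZO through 1 animal at 9.72, and NZO minus C3H was -0.40 ± 0.14 (adjusted p = 0.114). Lpin1, which is also a coactivator of fatty acid oxidation genes in liver, scattered between 8.62 and 11.93 within 129P2 alone, and none of its 6 differences passed, at an adjusted or an unadjusted p under 0.05.

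The last step of triglyceride synthesis is shared by the unrelated acyltransferases Dgat1 and Dgat2. Dgat1 had 7.82, 7.19, 7.35, 7.75 and 7.58 in NZO and 7.86, 7.66, 7.94, 7.97 and 7.78 in 129P2. NZO was lower by the smallest of all differences called on members without the covariate (-0.30 ± 0.09 SE, limma adjusted p = 0.0458), and this call was lost in 18 of 31 other settings. With the array spread in the fit Dgat1 was also called lower in NZO than in C3H (-0.24, limma adjusted p = 0.0394). Dgat2, the main enzyme of the step in liver, averaged 12.30 ± 0.04 in NZO, 12.30 ± 0.12 in C3H, 12.39 ± 0.15 in 129P2 and 12.35 ± 0.21 in B6 (SD, n = 5 each). Its NZO minus B6 interval was -0.24 to 0.14, and none of its 6 differences passed, at an adjusted or an unadjusted p under 0.05. Gpam, the mitochondrial glycerol phosphate acyltransferase, averaged 10.91 ± 0.15 in NZO, 11.35 ± 0.35 in C3H, 10.97 ± 0.44 in 129P2 and 11.50 ± 0.37 in B6. Its NZO and B6 values did not overlap, but the difference of -0.59 ± 0.19 had an adjusted p of 0.0514. Agpat2, the next acyltransferase of the pathway, had an NZO minus B6 interval of -0.12 to 0.56. Pnpla3, a lipid droplet protein whose human variant is linked to fatty liver, averaged 7.27 ± 0.07 in NZO, 7.32 ± 0.10 in C3H, 7.17 ± 0.03 in 129P2 and 7.37 ± 0.18 in B6 and passed in none of the 6 comparisons, with 2 at an unadjusted p under 0.05.

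Values that did not overlap between strains were counted as well. The strains did not overlap for 10 members in NZO minus B6 (9.32% of all tested genes), 7 in NZO minus C3H (6.72%), 3 in NZO minus 129P2 (7.95%), 4 in C3H minus B6 (8.81%), 4 in 129P2 minus B6 (7.41%) and 2 in C3H minus 129P2 (5.4%). The 10 of NZO minus B6 were the called genes Tkt, Acaca, Scd1, Scd2, Elovl2, Fads1, Fads2, Lpin2 and Srebf1, and Gpam.

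Genes of the same pathway outside the list were read for comparison. Of 15 tested further regulators, 2 were lower and 0 higher in NZO minus B6, and of 33 tested further enzymes, 4 were lower and 2 higher. Of 6 tested glucose-responsive targets of ChREBP, 0 passed in the 3 NZO comparisons by limma at an adjusted p under 0.05 without the covariate. With the array spread in the fit, 1 was lower against C3H and 2 against 129P2. At an unadjusted p under 0.05 without the covariate, 1 was lower against B6, 1 against C3H and 2 against 129P2. In NZO minus C3H the further regulators had 1 lower and the further enzymes 1 lower and 1 higher; in NZO minus 129P2 they had 2 lower, and 2 lower and 3 higher. Once the array spread was in the fit, the further regulators had 1 lower against B6, 2 lower against C3H, and 2 lower and 1 higher against 129P2. The further enzymes then had 3 lower and 3 higher against B6, 2 lower and 1 higher against C3H, and 4 lower and 4 higher against 129P2. The share of all tested genes in each comparison, at each level and in each adjusted fit, is that given for the members.

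Gpat3, a glycerol phosphate acyltransferase of the endoplasmic reticulum, went in the opposite direction to most members. It averaged 8.34 ± 0.13 in NZO, 7.83 ± 0.11 in C3H, 8.16 ± 0.16 in 129P2 and 7.34 ± 0.29 in B6 (log2, SD, n = 5 each). NZO was higher than B6 by 1.001 ± 0.108 SE (limma adjusted p = 9.19e-07) and higher than C3H by 0.51 ± 0.11 (adjusted p = 0.00355). Gpat3 was also higher than B6 in C3H (0.49 ± 0.11, adjusted p = 0.00548) and in 129P2 (0.82 ± 0.11, adjusted p = 2.17e-05), so B6 stood below the rest. Tecr, the enoyl-CoA reductase that completes each round of elongation, was lowest in NZO, with 11.47 ± 0.14 against 12.08 ± 0.12 in C3H, 12.00 ± 0.13 in 129P2 and 11.78 ± 0.06 in B6. Its difference passed against C3H (-0.61 ± 0.08, adjusted p = 1.53e-05), 129P2 (-0.53 ± 0.08, adjusted p = 8.78e-05) and B6 (-0.31 ± 0.08, adjusted p = 0.0142). Insig2, which retains the SREBP precursor in the endoplasmic reticulum, was lower in NZO than in C3H (-0.89 ± 0.22, adjusted p = 0.0151) and 129P2 (-0.87 ± 0.22, adjusted p = 0.0139). Pparg, an adipogenic nuclear receptor that is raised in fatty livers of mice, was lower in NZO than in B6 (-0.63 ± 0.15, adjusted p = 0.00874). It was also lower than B6 in C3H (-0.86 ± 0.15, adjusted p = 0.000749) and in 129P2 (-0.56 ± 0.15, adjusted p = 0.0277). The 129P2 call was lost with the array spread in the fit (adjusted p = 0.103). Pparg averaged 7.15 ± 0.05 in NZO, 6.92 ± 0.15 in C3H, 7.21 ± 0.15 in 129P2 and 7.78 ± 0.50 in B6, so B6 stood above the rest.

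Of the further enzymes that passed in 1 NZO comparison each, the 4 with the smallest adjusted p are given here. Oxsm, a condensing enzyme of mitochondrial fatty acid synthesis, was lower in NZO than in B6 (-0.51 ± 0.10 SE, limma adjusted p = 0.00119), and so was Pgls, an enzyme of the pentose phosphate pathway (-0.31 ± 0.06, adjusted p = 0.00170). Both genes were also called lower than B6 in C3H (-0.79 and -0.25) and in 129P2 (-0.77 and -0.28). The Oxsm mean of NZO, 8.78, lay above those of C3H, 8.49, and 129P2, 8.51. Against 129P2, NZO was higher for Gpd1, which makes glycerol phosphate (0.70 ± 0.14, adjusted p = 0.00158), and for Hsd17b12, a ketoacyl-CoA reductase of elongation (0.45 ± 0.09, adjusted p = 0.00156). For both of these genes 129P2 had the lowest strain mean, at 10.99 and 10.08.

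Livers are mixtures of cells, and in bulk tissue fewer cells of a type and less RNA per cell cannot be told apart. All 7 hepatocyte markers were measured, with a mean log2 level between 13.6 and 13.9 on every array. Their summed level was 93255.4 to 102992 in NZO, 103203 to 107505 in C3H, 99176.5 to 107634 in 129P2 and 100482 to 106780 in B6 (linear scale). All NZO sums thus lay below all C3H sums. At an unadjusted p under 0.05 (limma, no covariate), 2, 2 and 4 of the 7 were lower in NZO against B6, C3H and 129P2, and 0 were higher. Of these 7, Fabp1 was lower in NZO in all 3 NZO comparisons, and the other 6 did not pass in them without the covariate; with it, 1, 2 and 2 of the 7 were lower against B6, C3H and 129P2. Of 5 measured adipocyte markers, Adipoq and Lep were dim on all 20 arrays, the 3 tested did not pass in any comparison at an adjusted or an unadjusted p under 0.05 (limma), and the summed level of the 5 was 431 to 556 in NZO, 482 to 563 in C3H, 473 to 544 in 129P2 and 447 to 530 in B6 (linear scale). Markers of other cell types moved with NZO in both directions. Of 5 sinusoidal endothelial markers, 3 were lower against B6, 3 against C3H and 2 against 129P2, and their summed level was 1648 to 2225 in NZO, 2200 to 3052 in C3H, 2195 to 2931 in 129P2 and 2213 to 3082 in B6. Of 6 stellate cell markers, 3, 3 and 4 were lower in the same comparisons, with sums of 2422 to 3647 in NZO, 4095 to 4668 in C3H, 3830 to 5030 in 129P2 and 3186 to 5872 in B6. Fitted with the covariate, NZO minus B6 had 1 endothelial and 1 stellate cell marker lower, NZO minus C3H had 3 and 4, and NZO minus 129P2 had 4 and 4. Of 6 Kupffer cell markers, Clec4f was lower against B6 (-0.69 ± 0.12 SE, limma adjusted p = 0.000405) and against 129P2 (-0.59 ± 0.12, adjusted p = 0.00176), and the summed level of the 6 was 1964 to 3316 in NZO, 2172 to 2706 in C3H, 2305 to 4631 in 129P2 and 2660 to 3764 in B6. Both measured erythroid markers were higher in NZO than in B6, Alas2 by 0.58 ± 0.11 (adjusted p = 0.00130) and Slc4a1 by 0.24 ± 0.07 (adjusted p = 0.0367, lost with the array spread in the fit). Alas2 was also higher against 129P2 (0.59 ± 0.11, adjusted p = 0.00110), and the erythroid sum was 1459 to 2039 in NZO, 1385 to 1605 in C3H, 1109 to 1330 in 129P2 and 984 to 1410 in B6. Of 7 measured neutrophil markers, 5 were dim on all 20 arrays, and S100a9 was higher against B6 (0.39 ± 0.11, adjusted p = 0.0285). The neutrophil sum was 552 to 663 in NZO, 462 to 559 in C3H, 471 to 569 in 129P2 and 455 to 489 in B6. Under the covariate, the Kupffer cell markers lower in NZO were 1 in NZO minus B6, 1 in NZO minus C3H and 2 in NZO minus 129P2, and the erythroid markers higher were 1, 0 and 2. The part of these markers in the results on lipogenesis was not tested.

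Within strains, individual mice differed in Fasn, and other members were set against it animal by animal. Each value was expressed as the deviation from its strain mean, over 20 animals, so that strain differences do not enter. Acly followed Fasn most closely, with Pearson's r = 0.93 (permutation p = 1e-05, adjusted 0.000300) and Spearman's rho = 0.90 (permutation p = 1e-05, adjusted 0.000300). Both p-values are the smallest that 100000 permutations within strains can give; adjusted values are over the 30 relations computed. Without the 2 animals farthest in Fasn, 1 of 129P2 and 1 of B6, r was 0.90. Gpam (r = 0.84, rho = 0.83, permutation p = 1.00e-04 and 0.000180, adjusted 0.000825 and 0.00168) and Acaca (r = 0.81, rho = 0.84, permutation p = 0.000110 and 8.00e-05, adjusted 0.000825 and 0.00120) came next. Without the 2 farthest animals their r was 0.80 and 0.75.

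Of the 30 members set against Fasn, 20 had r above 0.5, where 4.83% of all other tested genes did, and the median r was 0.55 beside 0.03. With the array spread removed as well, 15 were above 0.5 (3.82% of all other genes) and the median was 0.50. Fasn itself correlated with the spread at r = 0.39 within strains, and all the values come from the same 20 arrays. Srebf1 stood lower in this order, with r = 0.58 and rho = 0.59 (permutation p = 0.0142 and 0.0134, adjusted 0.0305 and 0.0287; r = 0.63 without the 2 farthest animals).

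Scd1, the gene with the largest strain difference, did not follow Fasn detectably within strains. Its r was 0.24 and its rho 0.15 (permutation p = 0.332 and 0.553, adjusted 0.383 and 0.614; r = 0.13 without the 2 farthest animals). Lpin2, also lower in NZO, had r = 0.03 and rho = -0.03 (permutation p = 0.904 and 0.920, adjusted 0.904 and 0.920; r = 0.07 without those 2). Dgat2, Lpin1 and Mlxipl had r below 0, and none of these relations passed by permutation (adjusted p = 0.297, 0.520 and 0.861).

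**Figure D4:**
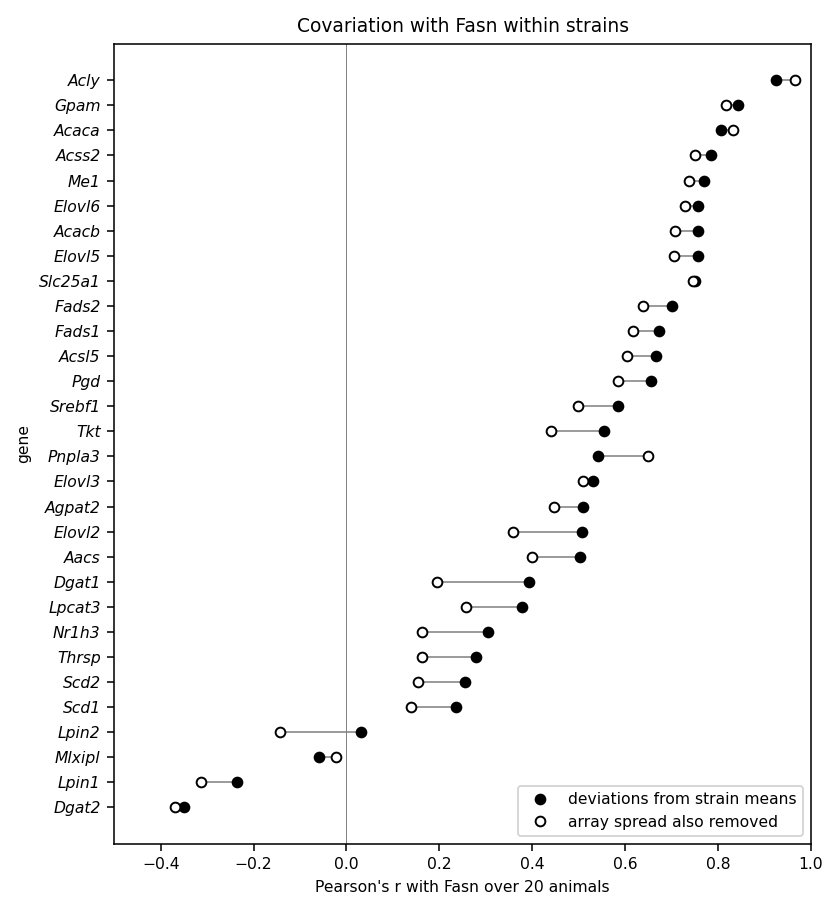
Pearson's r with Fasn (x axis) of 30 genes (rows), over the deviations of 20 animals from their strain means, before (filled) and after (open) the array spread was removed as well. Acly lies at the top with 0.93, and Dgat2, Lpin1 and Mlxipl lie below 0.

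**Figure D5:**
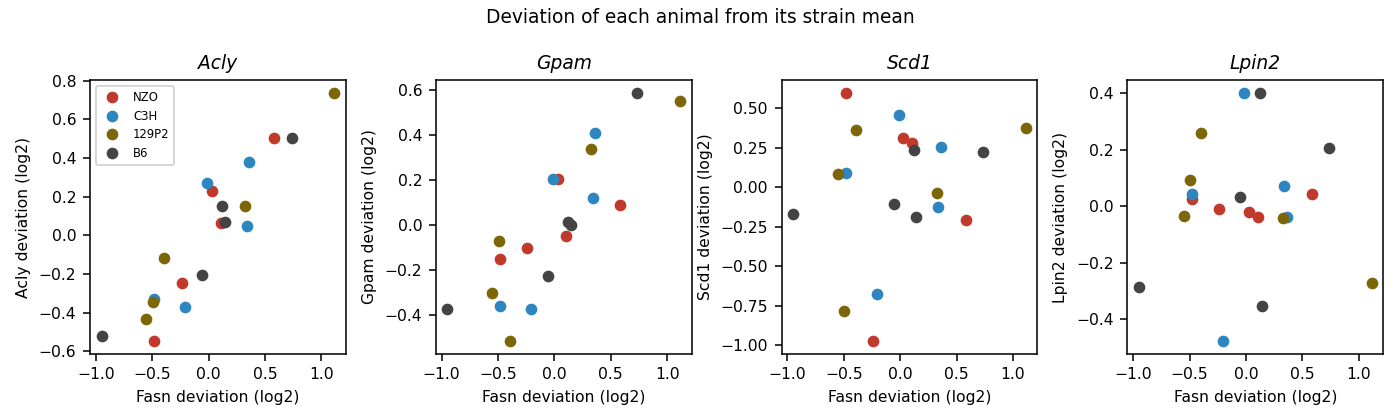
Deviation of each of 20 animals from its strain mean (log2 units) for Fasn on the x axis and Acly, Gpam, Scd1 or Lpin2 on the y axis, coloured by strain. Animals high in Fasn were also high in Acly and Gpam (r = 0.93 and 0.84), while Scd1 and Lpin2 scatter (r = 0.24 and 0.03).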

How the data were processed

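Total RNA of RIN above 8 from 20 livers was amplified (150 ng) and hybridised to Affymetrix whole-transcript arrays, per the labels' protocols. The authors deposited log2 values, made with Affymetrix Expression Console by RMA (background correction, quantile normalization and probe summary), per the submitters' processing notes; versions and the genome build are not given in the sources used here. Of 35556 probe sets, 21789 carried 1 gene symbol in the platform annotation, 1621 several and 12146 none. Per gene the brightest probe set was kept (19938 genes), and 14190 genes with at least 5 arrays above their 40th percentile were tested.

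One mean per strain was fitted with limma 3.58.1 (R 4.3.3), with an intensity trend, all 20 arrays sharing 1 estimate of the spread (16 residual degrees of freedom), and p-values were adjusted by Benjamini-Hochberg over 14190 genes. The array interquartile range as a covariate was one of 12 alternatives, which also took in filters, scalings, weights, probe sets and arrays left out. The number of arrays limits the precision. Replicate numbers follow the accession order and only name animals. The limma p-values set a difference against the spread between mice of the same strain, pooled over the 4 strains. The fit was tested on simulated data. The members and lists were chosen with earlier results of these data known. Each member called in at least 2 comparisons is given array by array, and those called in 1 in that comparison. Outside the list, the 8 genes called in NZO comparisons with the smallest adjusted p are named. Promoters were searched in Python 3.11.15, and plots were drawn with matplotlib 3.10.9.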

Additional observations from a re-analysis of the deposited data

Results flagged for a closer look

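Of 128 strain groups of 5 values examined, 4 held 1 animal whose gap to the nearest of the others exceeded 0.71 of the group's whole range (Dixon's critical value). Chance flags about 1 in 20 groups, so 4 is no more than chance gives. Elovl2 in C3H had a lowest value of 12.46, with the next at 12.81 and the highest at 12.9; that array, C3H replicate 3, also had the narrowest spread of the 20. Elovl3 in 129P2 had a highest value of 12.44, with the next at 11.51 and the lowest at 11.36, and Elovl5 in 129P2 had a highest value of 13.37, with the next at 12.96 and the lowest at 12.82. Both came from 129P2 replicate 4, the animal farthest above its strain mean in Fasn. Nr1h3 in 129P2 had a lowest value of 9.58, with the next at 9.97 and the highest at 10.12, in 129P2 replicate 2, whose array spread was second narrowest.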

How the results depend on the processing

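Of the 41 calls on members, 27 passed in all 31 settings tried (10 processing alternatives, the fits on the compared strains alone, and each animal left out in turn), 14 were lost in at least 1, and 0 changed direction. The array spread as a covariate cost 10 calls, the most of any setting. It also added calls that the fit without it did not give. Of these, Fasn in NZO minus C3H passed in 10 of the 31 settings. Slc25a1 in NZO minus C3H and Me1 in C3H minus 129P2 passed in 9 each. Dgat1 in NZO minus C3H and Elovl2 in C3H minus 129P2 passed in 1 each. Counts of called members that moved by over 1.5 times were as follows. NZO minus C3H, with 8 in the report, had 13 with array weights and 13 with the covariate. NZO minus 129P2, with 4, had 2 with equal array medians, 8 with array weights and 8 with the covariate. C3H minus B6, with 5, had 2 with the covariate and 3 without the 3 arrays of narrowest spread. 129P2 minus B6, with 8, had 4 with the covariate. C3H minus 129P2, with 2, had 1 with equal array medians, 4 with quantile normalization, 4 with array weights, 5 with the covariate and 1 without the 3 narrowest arrays. Leaving out each animal in turn gave 14 to 21 members in the F-test, 13 to 19 in NZO minus B6, 7 to 11 in NZO minus C3H, 2 to 6 in NZO minus 129P2, 2 to 6 in C3H minus B6, 7 to 12 in 129P2 minus B6 and 1 to 5 in C3H minus 129P2. Calls lost most often were Scd1 in C3H minus B6 (21 settings), Dgat1 in NZO minus 129P2 (18), Acaca in 129P2 minus B6 (16), Pgd in C3H minus B6 (11), and Lpin2 in NZO minus 129P2 and Fads2 in C3H minus 129P2 (9 each). The cause was not tested. A second draw of the permutations, with another random seed, put 0 of the 30 relations with Fasn on the other side of an adjusted p of 0.05. No paired analysis was made, because each mouse gave 1 array and belongs to 1 strain. Dim genes such as Mogat1 are limited by signal over background.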
